A study of Mus musculus with 44 samples.

Results

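Mouse small intestinal organoids were compared between the third and the fourth day of exposure to RANKL, a cytokine of the TNF family that makes gut epithelium form M cells. The comparison takes the 6 plates of sorted single cells from those 2 days, of 44 plates in the whole experiment, and every well with 1000 or more unique molecular identifiers (UMIs, counted RNA molecules). That left 1007 of 8231 cells, 810 on day 3 and 197 on day 4. The organoids are labelled line26 wild type, Lgr5GFPDTR/+, and came from a female mouse; 1 Lgr5 allele carries a GFP and diphtheria toxin receptor insertion, so Lgr5 counts are those of a modified locus. All plates share the same history: 3 µM CHIR99021, a GSK3 inhibitor, with 1.5 mM valproic acid, a histone deacetylase inhibitor, for 3 days, then plain ENR medium, which holds EGF, noggin and R-spondin1, and then 100 ng/mL RANKL. The day 4 cells had a further day of RANKL, and medium was renewed every 3 days, so that the added day, any renewal between the 2 days and the plate cannot be told apart. A parallel arm received RANKL with 40 µM CSRM617, an inhibitor of the transcription factor ONECUT2. The labels name no separate cultures or animals behind the plates. The p-values below therefore reflect how plates vary, and that variation may be technical.

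M cells are epithelial cells over lymphoid follicles that carry luminal antigen to immune cells. RANKL binds its receptor RANK on the epithelium, activates NF-kappaB, and through the Ets factor Spi-B drives their maturation. The same crypt epithelium renews itself from Lgr5-positive stem cells, which depend on Wnt signals and on low BMP signalling, and BMP signals are read by genes such as the Id family.

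The 3 day 3 plates held 271, 261 and 278 cells and the 3 day 4 plates 32, 120 and 45. UMIs summed to between 1245252 and 1501758 per plate on day 3 and between 178730 and 709142 on day 4, so the day 4 values carry more counting error. The median cell had 4740 to 5439 UMIs on day 3 and 5630 to 6960 on day 4. No 2 of the 1007 cells had identical counts, and pairs of these plates used 19 to 199 of the same well positions, which share barcodes by design. Log2 levels of plates of a day correlated across genes at 0.954 to 0.975 on day 3 and 0.852 to 0.896 on day 4. Epcam, the epithelial adhesion gene, was at 907 to 1418 CPM (counts of a gene relative to the plate total, with TMM scaling) over the 6 plates, and no fibroblast or immune marker had more than 2 UMIs on either day.

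Between day 3 and day 4 the plates lost RNA of M cell and BMP target genes and gained RNA of stem cell and DNA replication genes. Of 10000 genes tested on the summed counts of each plate, 934 were called (9.34%), of which 432 rose (4.32%) and 502 fell (5.02%), at an adjusted p of 0.05 (edgeR, quasi-likelihood test). The most calls of any daily step, 2375 (23.8%), came from day 0 to day 1, the first day of RANKL, and 149 (1.49%) from day 1 to day 2. The day before, from day 2 to day 3, 451 genes were called (4.51%), and the day after, from day 4 to day 5, 43 were (0.430%). These neighbouring steps share plates with the step described here. Later steps called 433 genes from day 5 to day 6 (4.33%), 630 to day 7 (6.30%), 2 to day 8 (0.0200%) and 403 to day 9 (4.03%). Without the third day 4 plate 222 genes rose and 263 fell, and without the second day 3 plate 277 rose. The plates of the 2 days did not overlap in 2459 of the 10000 genes (24.6%). The largest rises and falls named below were picked among genes without overlap, so for them it adds nothing. A sum over a plate cannot tell fewer cells of a type from less RNA per cell; values per cell are given further on.

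**Figure D1:**
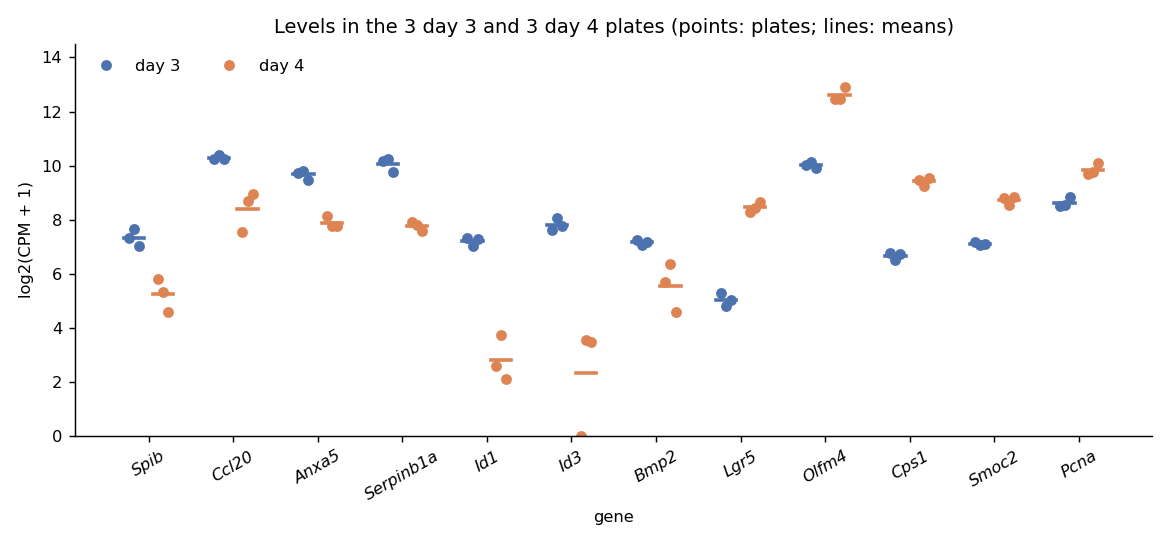
Levels of 12 genes as log2(CPM + 1) in each of the 3 day 3 plates (blue) and 3 day 4 plates (orange), with lines at the means. The day 4 points lie under the day 3 points for Spib to Bmp2 and above them for Lgr5 to Pcna. The 2 days do not overlap in these genes, which held for 24.6% of all tested genes. Id3 was at 0 CPM in the first day 4 plate.

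Of the 18 genes of the M cell list, 10 had enough counts to be tested, and 6 of these fell against 5.02% of all tested genes, none rising. Their median log2 fold change was -1.31, beside 0.00 over all genes, and 6 to 7 members fell when each plate was left out in turn. Spib (GRCm38, chromosome 7, 44525993 to 44532071, - strand), which encodes the factor that M cell maturation needs, was at 159, 201 and 129 CPM in the day 3 plates and 55.4, 38.5 and 23.2 CPM in the day 4 plates. Every day 4 plate was thus under every day 3 plate, with a log2 fold change of -2.11 ± 0.31 (SE, adjusted p = 1.73e-05), or 4.32-fold. Its UMIs numbered 674 on day 3 and 43 on day 4. Ccl20 (chromosome 1, 83116766 to 83119167, + strand), a chemokine that recruits CCR6-positive lymphocytes and dendritic cells to the follicle, was at 1197, 1348 and 1196 CPM and then at 186, 409 and 491 CPM. Its change was -1.74 ± 0.26 (SE, adjusted p = 1.81e-05), and the first day 4 plate was the lowest.

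Anxa5, a phospholipid-binding annexin (chromosome 3, 36448923 to 36475894, - strand), had 853, 899 and 703 CPM on day 3 and 282, 214 and 216 CPM on day 4, a change of -1.82 ± 0.15 (SE, adjusted p = 1.68e-10). Serpinb1a (chromosome 13, 32842092 to 32851185, - strand), an inhibitor of neutrophil-type serine proteases, had 1139.7, 1225 and 865 CPM and then 242, 220 and 192 CPM (-2.31 ± 0.20 SE, adjusted p = 3.41e-10). The day 4 plates of these genes lay close together, within 214 to 282 and 192 to 242 CPM. Serpinb6a, another serpin, and Ctsh, the lysosomal protease cathepsin H, completed the 6 with -1.41 ± 0.15 (SE, adjusted p = 2.66e-08) and -1.20 ± 0.15 (SE, adjusted p = 1.17e-06).

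The list did not move as a whole. Ccl9, a chemokine made by epithelium over lymphoid follicles, was at 186, 197 and 150 CPM on day 3 and 207, 119 and 82.9 CPM on day 4, with overlapping plates (-0.47 ± 0.26 SE, adjusted p = 0.289). Pglyrp1, a peptidoglycan recognition protein, had -0.26 ± 0.24 (SE, adjusted p = 0.563), Cyba, a subunit of NADPH oxidase, -0.14 ± 0.23 (SE, adjusted p = 0.789), and Marcksl1, a regulator of the actin cytoskeleton, -0.44 ± 0.15 (SE, adjusted p = 0.0657). Gp2, the bacterial receptor that defines mature M cells, had no UMI on either day, which allows up to 0.711 CPM on day 3 and 2.51 CPM on day 4 (3 counts over the day). Sox8, a factor upstream of Gp2, had 8 UMIs on day 3 and 1 on day 4. The label of M cell loss thus rests on 6 markers other than Gp2, and the cells are named here by their list UMIs and not as mature M cells. Against day 0, 8 of the 10 tested genes were still higher on day 4, where 10.1% of all genes were. Spib is an example, with no UMI on day 0. Serpinb1a was lower than on day 0 (log2 fold change -0.71, adjusted p = 0.0129).

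Genes of the NF-kappaB response, the direct output of RANK, rose in none of 25 tested members, with a median log2 fold change of -0.47. Falls were called in 6 (4 to 6 with 1 plate left out), against 5.02% of all tested genes. Besides Ccl20 these included Nfkbia, the inhibitor that NF-kappaB induces against itself, at 1591, 1470.1 and 1493 CPM on day 3 and 816, 808 and 1015 CPM on day 4 (-0.79 ± 0.14 SE, adjusted p = 0.000226). Its day 4 level was still 2.06 above day 0 on the log2 scale (edgeR adjusted p = 3.58e-12). Of the 25 genes, 18 exceeded day 0, where 10.1% of all genes did. Relb, the subunit of the noncanonical arm, was at 73.9, 102 and 85.2 and then 25.2, 41.6 and 56.4 CPM (-1.03 ± 0.27 SE, adjusted p = 0.0102). The call of Relb was lost without day 4 plate 2 (adjusted p = 0.0617); its adjusted p over all alternatives ran from 0.00151 to 0.349. Cxcl16, a scavenger receptor and chemokine, was at 106, 114 and 99.8 and then 55.4, 53.9 and 46.4 CPM (-1.03 ± 0.26 SE, adjusted p = 0.00904). That call was lost without day 4 plate 3 (adjusted p = 0.0537); its adjusted p over all alternatives ran from 0.000339 to 0.0986. Nfkb1, Nfkb2 and Rela, which encode other subunits, did not pass, at -0.17 ± 0.17 (SE, adjusted p = 0.595), -0.22 ± 0.22 (SE, adjusted p = 0.619) and -0.47 ± 0.37 (SE, adjusted p = 0.481). Tnfrsf11a, the gene of RANK, was at 282, 216 and 243 CPM and then 191, 186 and 166 CPM, without overlap but short of the threshold (-0.45 ± 0.15 SE, adjusted p = 0.052).

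The promoters of Spib and Ccl20 are shown because both genes fell together and carry different motif content. The sequences are the 250 bases before each RefSeq gene start (GRCm38.p6), 5′ to 3′ on the gene's strand, at chr7:44532072-44532321, - strand and chr1:83116516-83116765, + strand. Capitals mark matches to the NF-kappaB motif, GGGA followed by 4 bases of any kind and CC, on either strand.
Spib: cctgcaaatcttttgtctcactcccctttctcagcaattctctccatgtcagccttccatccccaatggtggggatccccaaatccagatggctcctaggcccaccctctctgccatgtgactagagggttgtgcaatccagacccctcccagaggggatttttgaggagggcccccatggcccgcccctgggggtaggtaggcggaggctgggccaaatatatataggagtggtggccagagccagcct
Ccl20: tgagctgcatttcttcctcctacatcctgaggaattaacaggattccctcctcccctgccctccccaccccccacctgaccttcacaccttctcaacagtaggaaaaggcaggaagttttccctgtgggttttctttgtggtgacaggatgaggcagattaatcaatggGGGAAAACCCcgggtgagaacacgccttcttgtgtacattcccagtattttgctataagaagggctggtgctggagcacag
Spib had no match in this window, and Ccl20 had 1, beginning 81 bases before the start. Searched on either strand, the motif occurs in 17.3% of the 27025 RefSeq promoter windows of this length, and in 4 of the 16 M cell list promoters and 11 of the 22 NF-kappaB list promoters in that table. An Ets core, GAGGAA on either strand, matched 2 times in the Ccl20 window and not in that of Spib, and occurs in 23.1% of windows. A match describes letters only and is not a site.

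BMP target genes held the 2 largest falls that the rule for named genes picked. Of 9 list members 7 were tested and 5 fell, where 5.02% of all tested genes did. The median log2 fold change was -1.30, and 4 or 5 members fell with a plate left out. Id3 (chromosome 4, 136143497 to 136145755, + strand), a helix-loop-helix protein that blocks the binding of differentiation factors to DNA, was at 197, 266 and 216 CPM in the day 3 plates and 0, 10.8 and 9.95 CPM in the day 4 plates. It had 939 UMIs on day 3 and 10 on day 4, a log2 fold change of -4.69 ± 0.40 (SE, adjusted p = 1.59e-10). Id1, its paralog (chromosome 2, 152736251 to 152737410, + strand), was at 157, 129 and 154 CPM and then 5.04, 12.3 and 3.32 CPM (-4.08 ± 0.30 SE, adjusted p = 3.66e-12). In both genes the highest day 4 plate stood more than 10-fold under the lowest day 3 plate. Id2, the third member of the family, fell less, from 731, 762 and 830 CPM to 418, 396 and 441 CPM (-0.89 ± 0.14 SE, adjusted p = 2.21e-05).

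Bmp2, a ligand of the pathway, was at 152, 133 and 143 CPM on day 3 and 50.4, 81.6 and 23.2 CPM on day 4 (-1.30 ± 0.27 SE, adjusted p = 0.00129), and its log2 fold change was -2.07 without the second day 4 plate. Smad7, an inhibitor that the pathway induces, had -1.30 ± 0.30 (SE, adjusted p = 0.00418), a call lost without day 4 plate 3 (adjusted p = 0.0541); its adjusted p over all alternatives ran from 0.00142 to 0.0541. Smad6, a related inhibitor, and Bambi, a decoy receptor, did not pass (-0.54 ± 0.47 SE, adjusted p = 0.546 and -0.28 ± 1.18 SE, adjusted p = 0.932, with 9 and 2 UMIs of Bambi on the 2 days). Id1 and Id3 were lower on day 4 than before RANKL as well. Their day 0 levels were 38 ± 6.39 and 27.7 ± 14.6 CPM (SD, n = 3), and the changes from day 0 to day 4 were -2.13 (edgeR adjusted p = 5.86e-05) and -1.59 (adjusted p = 0.0387).

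Stem cell genes rose in 10 of 11 tested members, where 4.32% of all genes rose, with a median log2 fold change of 1.84 and 9 to 10 rises when a plate was left out. Lgr5 (chromosome 10, 115450311 to 115587780, - strand), the R-spondin receptor that marks crypt base stem cells, was at 38, 26.8 and 31.9 CPM in the day 3 plates and 312, 340 and 401 CPM in the day 4 plates. Its log2 fold change was 3.44 ± 0.16 (SE, adjusted p = 4.29e-17), or 10.8-fold. Olfm4, a secreted glycoprotein of the same cells (chromosome 14, 79984081 to 80023139, + strand), was at 1029, 1131 and 956 CPM and then 5622, 5614 and 7718 CPM (2.61 ± 0.19 SE, adjusted p = 2.65e-12). For both genes the 3 plates of a day lay close together relative to the step between days.

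Tnfrsf19, also called Troy, a Wnt-induced receptor, rose from 8.82, 11.8 and 15.2 CPM to 90.7, 89.3 and 49.8 CPM (2.69 ± 0.27 SE, adjusted p = 6.26e-09). Rgcc, a regulator of the cell cycle, rose from 16.3, 3.95 and 4.16 to 60.4, 81.6 and 56.4 CPM (3.05 ± 0.36 SE, adjusted p = 3.56e-07), on 35 UMIs on day 3 and 82 on day 4. Smoc2, a matricellular protein, was at 143, 132 and 134 and 448, 368 and 461 CPM (1.62 ± 0.14 SE, adjusted p = 1.34e-10), and Cdca7, a MYC-responsive gene, at 90.9, 66.3 and 68.6 and 292, 249 and 279 CPM (1.84 ± 0.17 SE, adjusted p = 1.44e-09). Rgmb, a BMP coreceptor, Slc12a2, a chloride cotransporter of crypt cells, and Lrig1, an EGF receptor inhibitor, rose by 2.11 ± 0.20, 1.00 ± 0.13 and 1.24 ± 0.22 (log2, SE). Against day 0, 7 of the 11 genes were higher on day 4 and 1 was lower, beside 10.1% and 11.4% of all genes. Ascl2, the stem cell transcription factor, was at 94.3, 91.6 and 67.9 CPM and then 106, 123 and 226 CPM (0.83 ± 0.21 SE, adjusted p = 0.00758). The call of Ascl2 rested on the highest plate and was lost without day 4 plate 3 (adjusted p = 0.227); its adjusted p over all alternatives ran from 0.00297 to 0.755. Its log2 fold change was 0.47 without that plate. Prom1 was the tested member that did not pass (0.01 ± 0.18 SE, adjusted p = 0.988).

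Wnt target genes rose in 6 of 13 tested members (4 to 6 with a plate left out), beside 4.32% of all tested genes. The median of the 13 was 0.62. Ephb3, an ephrin receptor that positions cells in the crypt, was at 39.3, 39.5 and 35.3 CPM and then 111, 61.6 and 106 CPM (1.17 ± 0.23 SE, adjusted p = 0.000708). Rnf43, a ubiquitin ligase that removes Wnt receptors, was at 29.2, 22.9 and 34.6 and 95.7, 53.9 and 59.7 CPM (1.15 ± 0.23 SE, adjusted p = 0.00105), and Axin2, a feedback inhibitor, at 82.8, 76.6 and 74.8 and 171, 148 and 126 CPM (0.91 ± 0.20 SE, adjusted p = 0.00248). Sox9, a crypt transcription factor, rose by 0.62 ± 0.14 (log2, SE). Myc, Ccnd1 and Cd44, other targets, did not pass, with 0.22 ± 0.16 (SE, adjusted p = 0.443), -0.13 ± 0.36 (SE, adjusted p = 0.883) and -0.01 ± 0.13 (SE, adjusted p = 0.991). Cps1, the first enzyme of the urea cycle and in no list, rose from 108, 90 and 105 CPM to 705, 599 and 750 CPM (2.75 ± 0.16 SE, adjusted p = 6.85e-15). Phlda1, a pleckstrin homology protein of intestinal progenitors, and Pthlh, a parathyroid hormone-related peptide, rose by 2.09 ± 0.15 and 1.96 ± 0.26 (log2, SE).

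The Olfm4 promoter window is given because the gene rose while NF-kappaB genes fell, and its letters hold the same motif (capitals, as above). It is the 250 bases before the RefSeq start (GRCm38.p6, chr14:80000052-80000301, + strand). The GENCODE gene, at 79984081 to 80023139, begins further upstream. The window thus lies inside that gene and is not the one before the GENCODE start.
Olfm4: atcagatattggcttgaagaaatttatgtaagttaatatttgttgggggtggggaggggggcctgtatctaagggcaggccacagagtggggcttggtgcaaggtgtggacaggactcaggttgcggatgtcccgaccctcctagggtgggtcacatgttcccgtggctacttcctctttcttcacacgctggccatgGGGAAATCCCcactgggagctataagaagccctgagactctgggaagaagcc
Its 1 match begins 52 bases before the RefSeq start, and a match to the Ets motif GAGGAA begins 79 bases before that start. Among the 9 stem cell list promoters in the table, 4 held the NF-kappaB motif and 1 the Ets motif GAGGAA.

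DNA replication genes rose in 16 of 18 tested members (12 to 15 with a plate left out), beside 4.32% of all tested genes. The median of the 18 was 1.17. Pcna, the sliding clamp of the DNA polymerases, was at 361, 369 and 460 CPM on day 3 and 826, 864 and 1095 CPM on day 4 (1.23 ± 0.17 SE, adjusted p = 4.04e-06). The helicase subunits Mcm3 and Mcm6 were at 42.7, 53.7 and 38.1 and 61.1, 79.7 and 67.9 CPM on day 3. On day 4 they were at 101, 102 and 149 and 161, 145 and 189 CPM, with changes of 1.37 ± 0.21 (SE, adjusted p = 3.54e-05) and 1.23 ± 0.17 (SE, adjusted p = 5.03e-06). Clspn, a checkpoint adaptor of the replication fork, rose by 1.81 ± 0.34 (SE, adjusted p = 0.00051). Slbp, which binds histone mRNA, did not pass (0.04 ± 0.23 SE, adjusted p = 0.961). Against day 0, 1 of the 18 genes was higher on day 4 and none was lower, beside 10.1% and 11.4% of all genes.

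Genes of mitosis are active later in the cell cycle. None of 19 tested members passed with edgeR, 2 had an unadjusted p under 0.05, and DESeq2 called none; the median log2 fold change was 0.01. Mki67, a nuclear protein of cycling cells, was at 239, 126 and 246 CPM and 171, 265 and 209 CPM (0.13 ± 0.26 SE, adjusted p = 0.828). Top2a, the topoisomerase of dividing cells, was higher in each day 4 plate and did not pass (573, 268 and 535 and then 599, 713 and 819 CPM; 0.64 ± 0.22 SE, adjusted p = 0.0666). Ccnb1, a cyclin of entry into mitosis, had -0.67 ± 0.27 (SE, adjusted p = 0.115).

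**Figure D2:**
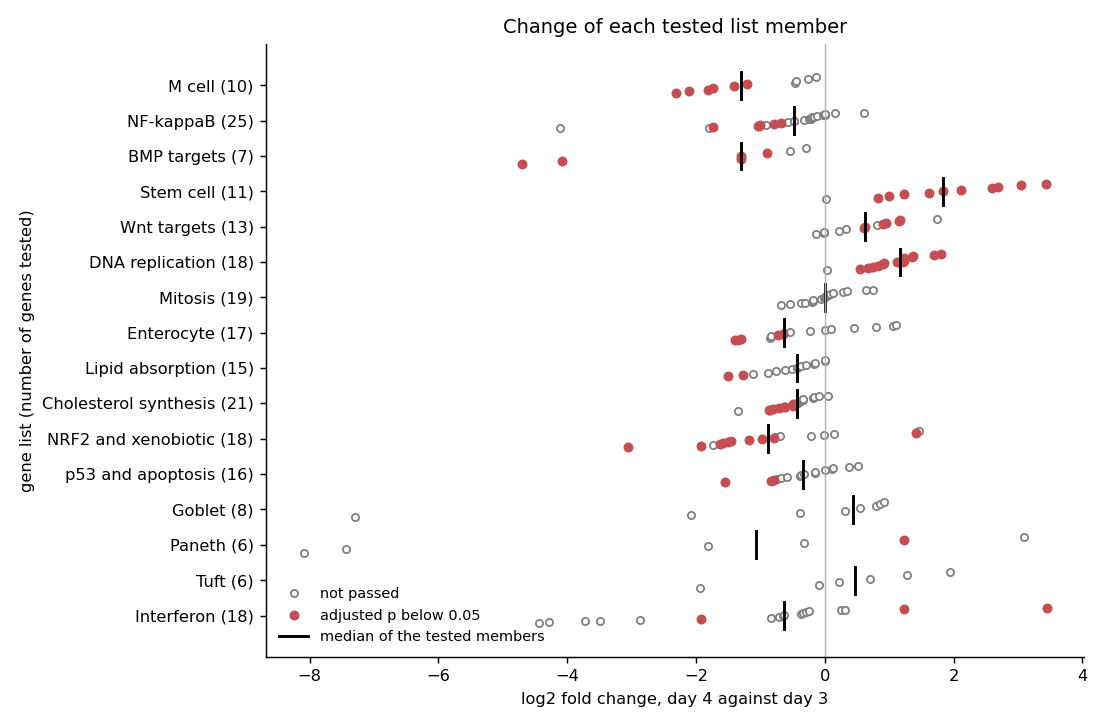
Log2 fold change of day 4 against day 3 for each tested member of 16 gene lists, with the number tested beside each name, filled points for adjusted p under 0.05 and bars at the medians. Every called stem cell, Wnt target and DNA replication member lies to the right of 0 and every called M cell and BMP target member to the left, while no mitosis member was called.

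Enterocyte genes fell in 5 of 17 tested members, beside 5.02% of all tested genes, and rose in none. The median of the 17 was -0.63, and the plates of day 4 differed widely. Without the third day 4 plate 1 member fell, and without the second 7 did. Sis, the brush border disaccharidase, was at 4180.3, 4549.9 and 4496 CPM on day 3 and 363, 3139 and 1536 CPM on day 4 (-1.35 ± 0.35 SE, adjusted p = 0.00948). The first day 4 plate, of 32 cells, was the lowest. The call of Sis was lost without day 4 plate 3 (adjusted p = 0.0585); its adjusted p over all alternatives ran from 7.34e-20 to 0.129, and its log2 fold change was -0.90 without the first day 4 plate and -2.19 without the second. Alpi, the brush border alkaline phosphatase, was at 467, 628 and 566 and then 146, 402 and 46.4 CPM (-1.30 ± 0.34 SE, adjusted p = 0.0109). The call of Alpi was lost without day 4 plate 1 (adjusted p = 0.0537) or day 4 plate 3 (adjusted p = 0.101); its adjusted p over all alternatives ran from 5.45e-14 to 0.662, and its log2 fold change was -2.65 without the second day 4 plate. Lipid absorption genes fell in 2 of 15 tested members, beside 5.02% of all tested genes. With a plate left out 1 to 5 members fell, the 5 being without the second day 4 plate. Npc1l1, the cholesterol transporter that ezetimibe blocks, was at 143, 215 and 130 CPM and then 80.6, 63.1 and 29.9 CPM (-1.51 ± 0.28 SE, adjusted p = 0.000428). Apob and Apoa4, chylomicron apolipoproteins, did not pass (-0.15 ± 0.39 SE, adjusted p = 0.879 and 0.00 ± 0.47 SE, adjusted p = 0.999).

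Cholesterol synthesis genes fell in 8 of 21 tested members, beside 5.02% of all tested genes, with none rising (median -0.42). That count ranged from 1 without the third day 4 plate to 10 without the second. Fdft1, squalene synthase, was at 297, 341 and 314 CPM on day 3 and 222, 217 and 172 CPM on day 4 (-0.64 ± 0.14 SE, adjusted p = 0.00241). Genes of the NRF2 and xenobiotic response fell in 9 of 18 members, 7 to 10 with a plate left out, and 1 rose. Among all tested genes 5.02% fell and 4.32% rose. On day 4, 15 of the 18 were also lower than on day 0, where 11.4% of all genes were. Nqo1, a quinone reductase, was at 42.7, 45 and 45 CPM and then 10.1, 4.62 and 3.32 CPM (-3.05 ± 0.45 SE, adjusted p = 1.57e-05), and Gclc, the limiting enzyme of glutathione synthesis, at 265, 272 and 240 and then 90.7, 112 and 56.4 CPM (-1.51 ± 0.22 SE, adjusted p = 1.57e-05). Gsta1 and Gsta4, glutathione transferases, had -1.92 ± 0.39 (SE, adjusted p = 0.00108) and -1.45 ± 0.22 (SE, adjusted p = 2e-05); the Gst genes have near-identical copies that counting may split. Cyp2c55, a cytochrome P450 of the same caveat, had -1.63 ± 0.32 (SE, adjusted p = 0.000683).

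Of 16 tested genes of p53 and apoptosis none rose. Beside 5.02% of all tested genes, 3 of the 16 fell (2 to 4 with a plate left out). They were Fas, the death receptor (35.3, 40.3 and 45 and then 10.1, 16.9 and 9.95 CPM; -1.55 ± 0.38 SE, adjusted p = 0.00716), Zmat3, a p53 target (-0.78 ± 0.18 SE, adjusted p = 0.00344), and Cdkn1a, the cell cycle inhibitor p21 (-0.83 ± 0.25 SE, adjusted p = 0.0302). The call of Cdkn1a was lost without day 3 plate 1 (adjusted p = 0.0972) or day 3 plate 3 (adjusted p = 0.0737) or day 4 plate 1 (adjusted p = 0.113) or day 4 plate 3 (adjusted p = 0.157); its adjusted p over all alternatives ran from 1.01e-05 to 0.253. Bax and Bbc3, of the cell death machinery, did not pass (-0.32 ± 0.21 SE, adjusted p = 0.387 and -0.39 ± 0.54 SE, adjusted p = 0.731). Among genes of the regenerative list, S100a6 and Anxa2, both calcium-binding, fell from 630, 519 and 593 and 559, 519 and 525 CPM to 252, 208 and 222 and 217, 252 and 249 CPM (-1.38 ± 0.15 SE, adjusted p = 1.06e-07 and -1.14 ± 0.16 SE, adjusted p = 7.72e-06). Of 18 interferon genes 2 rose and 1 fell, beside 4.32% rises and 5.02% falls among all tested genes. The count of 1 fall lies near that background. The median log2 fold change of the 18 was -0.64. Point estimates were lower in 14 and higher in 4. On day 4, 16 of the 18 were lower than on day 0, where 11.4% of all genes were. Irf7, the gene that fell, had 55 UMIs on day 3 and 4 on day 4. Its adjusted p over all alternatives ran from 0.0137 to 0.398. Ifit2, an interferon-induced gene, rose by 3.45 ± 0.71 (SE, adjusted p = 0.00123) on 6 UMIs on day 3 and 19 on day 4. The call of Ifit2 was lost with all plates thinned to the shallowest (adjusted p = 0.267). It was also lost without cells of 3 or more M cell list UMIs (adjusted p = 0.0717). Ifitm3, an antiviral membrane protein also found in stem cells, rose from 264, 244 and 257 to 589, 528 and 680 CPM (1.22 ± 0.15 SE, adjusted p = 1.11e-06), while Isg15, an interferon-induced ubiquitin-like protein, had -0.64 ± 1.49 (SE, adjusted p = 0.856).

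Calls in the remaining lists numbered 1 fall of 12 antigen presentation genes, 1 rise of 15 immediate early genes, 2 falls of 16 ER and amino acid stress genes, 1 rise and 3 falls of 15 glycolysis and hypoxia genes, and 1 rise and 2 falls of 7 epithelial genes, beside 4.32% rises and 5.02% falls among all genes. The counts of 1 in 12 and 1 in 15 lie near that background. No heat shock gene of 6 was called by edgeR or DESeq2 (1 at an unadjusted p under 0.05).

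Other large falls picked by the rule were those of metabolic enzymes. G6pc, the glucose-6-phosphatase, was at 199, 177 and 165 CPM and then 5.04, 53.9 and 29.9 CPM (-2.28 ± 0.43 SE, adjusted p = 0.000476), Hsd17b2, a steroid dehydrogenase, at 65.1, 75 and 79 and then 15.1, 20 and 6.63 CPM (-2.24 ± 0.40 SE, adjusted p = 0.000237), and Adh6a, an alcohol dehydrogenase, at 170, 231 and 211 and then 45.3, 78.5 and 39.8 CPM (-1.75 ± 0.32 SE, adjusted p = 0.000307). Clec2h, a C-type lectin of the gut epithelium, had 602, 722 and 535 and then 232, 234 and 123 CPM (-1.64 ± 0.23 SE, adjusted p = 5.03e-06).

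Secretory genes did not pass as groups, on few counts. No goblet gene of 8 tested was called by edgeR (1 at an unadjusted p under 0.05) or DESeq2. The same held for 7 enteroendocrine genes (none at an unadjusted p under 0.05) and 6 tuft genes (1). Muc2, the goblet cell mucin, had 65, 12 and 1 UMIs in the day 3 plates and none on day 4. Ang4 and Defa24, Paneth cell antimicrobials, had 87 and 137 UMIs on day 3, of which 79 and 114 came from a single cell each, and none on day 4. Mmp7, the matrilysin of Paneth cells, was the Paneth gene of 6 called by edgeR, where DESeq2 called 1 rise and 2 falls. It was at 161, 137 and 129 and then 317, 195 and 527 CPM (1.24 ± 0.24 SE, adjusted p = 0.000699). The call of Mmp7 was lost without day 4 plate 3 (adjusted p = 0.0607); its adjusted p over all alternatives ran from 1.11e-09 to 0.0607. Its log2 fold change was 0.76 without that plate. Lyz1, the Paneth lysozyme, was at 89.5, 0 and 14.6 CPM and then 1103, 26.2 and 6.63 CPM. In the first day 4 plate 150 of its 219 UMIs came from 1 cell, while 28 of the 32 cells had at least 1.

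Per cell, the share with 3 or more UMIs of the M cell list was taken after thinning every cell to 1000 UMIs, so that all cells were compared at equal depth. It was 63.5%, 72.4% and 60.8% in the day 3 plates and 40.6%, 27.5% and 31.1% in the day 4 plates. Every day 4 plate was lower, a mean of 65.6% ± 6.09 against 33.1% ± 6.78 (SD, n = 3, exact permutation test p = 0.1, the smallest that 3 plates against 3 allow; adjusted p = 0.2 over 10 lists). Before RANKL the same share was 11.9% ± 2.36. Spib had no UMI then, and the list UMIs of that day came from members such as Serpinb6a and Serpinb1a, with 1273 and 874. Between 26.8% and 33.1% of day 3 cells and between 25.8% and 37.5% of day 4 cells had 2 or 3 list UMIs and so lay at the boundary. Without thinning the share was over 90% in all 6 plates. Cells that passed had 7.38 to 8.34 list UMIs per 1000 on day 3 and 4.36 to 5.15 on day 4. The same UMIs chose these cells, so this is a description.

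The share with 3 or more UMIs of the stem cell list was 48.7%, 53.6% and 48.2% on day 3 and 96.9%, 83.3% and 91.1% on day 4, and that of the DNA replication list 17.7%, 17.2% and 16.5% and then 43.8%, 33.3% and 44.4%. Enterocyte list shares were 71.2%, 74.7% and 77% and then 65.6%, 59.2% and 62.2%, and lipid absorption shares 28.4%, 33% and 32.7% and then 6.25%, 20.8% and 11.1%. The plates of the 2 days did not overlap in any of these 4 lists either, each at the same smallest p = 0.1 (exact permutation test, adjusted p = 0.2). At this thinning, shares for goblet, Paneth, enteroendocrine, tuft and mitosis lists overlapped between days. For the mitosis list the mean difference was 4.71 percentage points (exact permutation test, p = 0.6). It was 0.440 without the second day 3 plate, 0.997 without the third day 4 plate, 8.33 without the third day 3 plate, 11.1 when thinned to 2000 UMIs and 23.2 without thinning. Which lists overlapped depended on thinning. With all UMIs the mitosis shares were 53.5%, 28%, 51.8% on day 3 and 59.4%, 59.2%, 84.4% on day 4, and the Paneth shares 8.12%, 4.21%, 8.27% and then 62.5%, 12.5%, 40%, both without overlap. The lipid absorption shares then were 77.5%, 68.6%, 79.1% and 59.4%, 75%, 73.3%, and the enterocyte shares 99.6%, 96.9%, 100% and 93.8%, 98.3%, 100%, both with overlap. The cells of day 4 were deeper, so unthinned shares also carry depth.

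**Figure D3:**
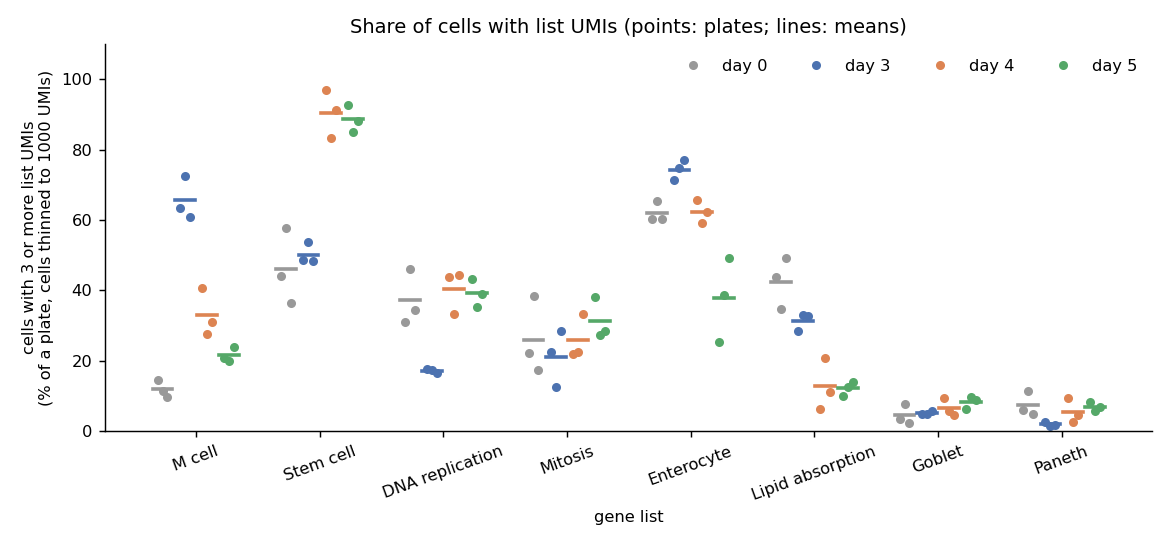
Percent of the cells of a plate with 3 or more UMIs of a list, each cell thinned to 1000 UMIs, on days 0, 3, 4 and 5 (points for plates, lines for means). The M cell share goes from 65.6% on day 3 to 33.1% on day 4 and the stem cell share from 50.2% to 90.4%.

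Counting both lists in the same cell, cells with the M cell list alone made up 38.7%, 37.9% and 36.7% of the day 3 plates and 3.12%, 7.50% and 4.44% of the day 4 plates. Cells with both lists made up 24.7%, 34.5% and 24.1% and then 37.5%, 20% and 26.7%, with overlap. On day 4 the M cell list alone was thus found in 1, 9 and 2 of 32, 120 and 45 cells. On day 3 it was found in 105, 99 and 102 of 271, 261 and 278 cells. As a mean of 90.4% of day 4 cells passed for the stem cell list, few could hold the M cell list alone. Cells with the stem cell list alone went from 24%, 19.2% and 24.1% to 59.4%, 63.3% and 64.4%. No cell class that lacks stem cell RNA was defined, so how much of it is RNA spread between wells was not tested.

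**Figure D4:**
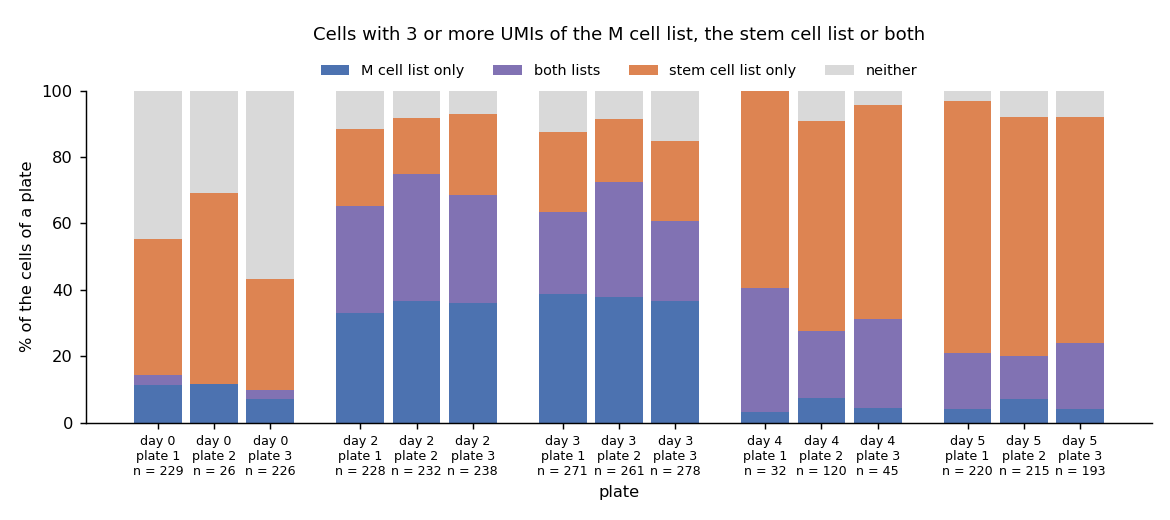
Percent of the cells of each plate with 3 or more UMIs of the M cell list only, of both lists, of the stem cell list only, or of neither, on days 0, 2, 3, 4 and 5; n is the number of cells. Cells with the M cell list only are 36.7% to 38.7% of the day 3 plates and 3.12% to 7.50% of the day 4 plates.

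Id1 and Lgr5 differed between days both inside and outside the cells that passed for the M cell list. Id1 was at 117, 129 and 103 CPM in passing cells of day 3 and 12, 5.24 and 0 CPM in those of day 4. In the remaining cells it was at 230, 136 and 218 and then 0, 13.5 and 4.49 CPM. Lgr5 was at 24, 19.7 and 18.6 CPM in passing cells of day 3 and 300, 236 and 500 CPM in those of day 4. In the remaining cells it was at 63.9, 48.5 and 49.3 and then 388, 339 and 350 CPM. These 4 pairs of groups did not overlap (exact permutation test, p = 0.1 each, the smallest possible). Spib within passing cells was at 218, 258 and 189 CPM on day 3 and 96.1, 83.9 and 58.1 CPM on day 4. Ccl9 within them was at 253, 254 and 200 and 432, 173 and 174 CPM, with overlap. On day 4 passing cells numbered 13, 33 and 14, so single plates rest on few cells. At 1000 UMIs per cell Id3 was seen in 14.8%, 19.9% and 10.8% of day 3 cells and in 0 of 197 day 4 cells. At that depth, and with the cells of 3 plates pooled, a count of 0 allows up to 1.52% of cells with a UMI, which is no limit on cells that express the gene. With all UMIs it was seen in 46.9%, 51.3% and 46% and then 0%, 5.00% and 6.67%.

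The fit was repeated on plate sums without the cells that passed for the M cell list, which kept 280 day 3 and 137 day 4 cells. Then 84 of 8793 genes rose (0.955%) and 108 fell (1.23%). Of stem cell genes 9 of 11 still rose (median 1.33), and of BMP targets 4 of 6 still fell (-1.39). Lgr5 was at 2.77 (adjusted p = 4.35e-13), Olfm4 at 1.99 (adjusted p = 2.94e-09), Id1 at -4.26 (adjusted p = 8.56e-10) and Id3 at -5.45 (adjusted p = 4.24e-10) on the log2 scale. Wnt target genes rose in only 1 of 13 (median 0.32). Ephb3, Rnf43 and Axin2 were no longer called (edgeR adjusted p = 0.0635, 0.134 and 0.379). DNA replication genes rose in 4 of 18 (median 0.73, beside 1.17 with all cells). NRF2 and xenobiotic genes fell in 6 of 18 (median -1.32, beside -0.88 with all cells). No enterocyte, lipid absorption or cholesterol synthesis gene was called. Their medians were -0.35, -0.39 and -0.39, beside -0.63, -0.43 and -0.42 with all cells. With fewer cells in this fit, a lost call does not show that a change was absent. In the M cell list 3 genes fell, and Spib was at -1.13 (adjusted p = 0.354). That list chose the cells left out, so its count there says nothing of its own.

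Over the whole course these levels changed in a step between day 3 and day 4. Spib was at 259 ± 64.6, 184 ± 38.4 and 163 ± 36 CPM on days 1 to 3 (SD, n = 3) and at 39 ± 16.1, 35.6 ± 13.4 and 24.6 ± 6.39 CPM on days 4 to 6. Id1 was at 146 ± 15.4 CPM on day 3, 6.89 ± 4.78 on day 4 and 11.7 ± 2.14 on day 5, and its mean stayed between 5.59 and 11.7 CPM on days 5 to 9. Lgr5 stood at 190 ± 4.04 CPM on day 0, 32.2 ± 5.58 on day 3, 351 ± 45.5 on day 4 and 472 ± 47.1 on day 5. Olfm4 was at 1038 ± 87.9 CPM on day 3, 6318 ± 1213 on day 4, 7953 ± 1123 on day 5 and 3932 ± 770 on day 6. From day 4 to day 5, a step that shares the day 4 plates, Spib, Id1, Lgr5 and Olfm4 changed by -0.08, 0.45, 0.42 and 0.33 on the log2 scale (edgeR adjusted p = 0.968, 0.757, 0.147 and 0.404). The day 5 plates held 193 to 220 cells each. The part of the low cell number of day 4 in its levels was not tested. The M cell list share was 21.6% ± 2.00 on day 5, 31.9% ± 5.35 on day 6, 11.6% ± 2.94 on day 7 and 14.8% ± 2.34 on day 9, so that day 6 stood near day 4.

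**Figure D5:**
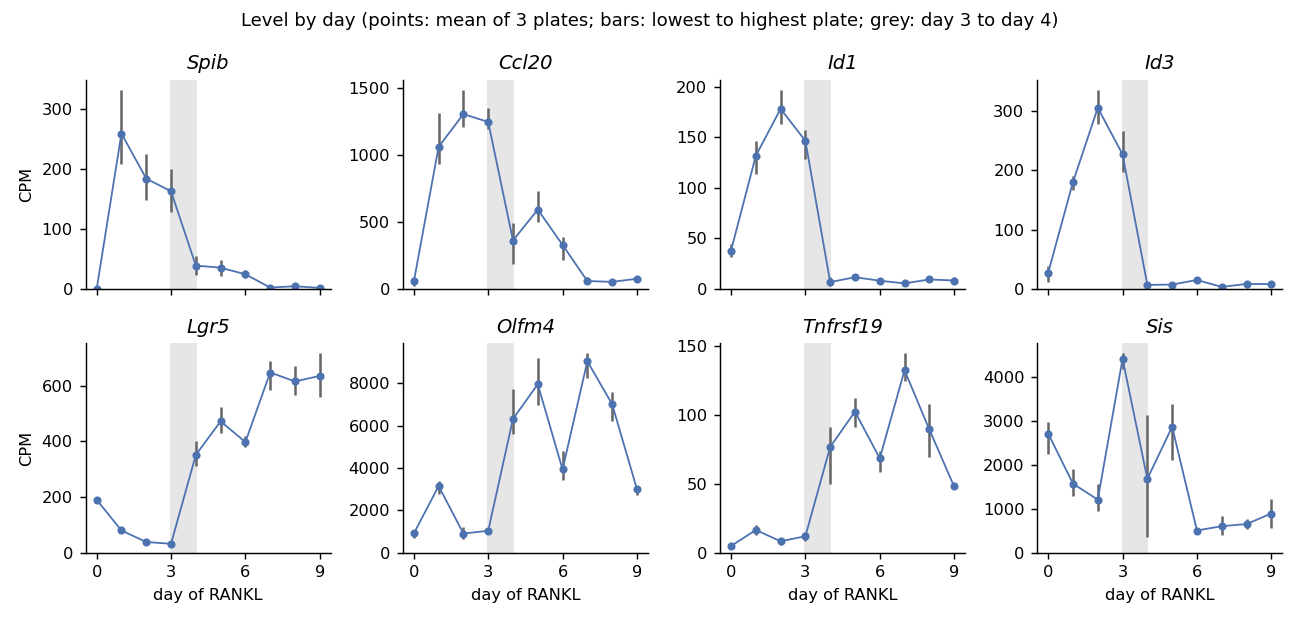
Mean level in CPM of 8 genes on each day of RANKL, with bars from the lowest to the highest of 3 plates and the step from day 3 to day 4 in grey; each panel has its own axis from 0. Spib, Ccl20, Id1 and Id3 are high on days 1 to 3, Lgr5 and Tnfrsf19 are higher from day 4 than before, Olfm4 is high on days 4 to 8, and Sis is highest on day 3.

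Onecut2, the gene of the factor that CSRM617 inhibits, was at 1367, 1099.8 and 1242 CPM on day 3 and 484, 734 and 531 CPM on day 4, a fall of every plate (-1.06 ± 0.15 SE, adjusted p = 8.08e-06). Its RNA was seen in 69.4%, 62.8% and 62.2% of day 3 cells and 31.2%, 44.2% and 42.2% of day 4 cells at 1000 UMIs per cell. In cells that did not pass for the M cell list it was at 1127, 897 and 876 and then 566, 582 and 525 CPM.

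The arm with the inhibitor also had fewer cells on day 4, with 92 and 103 cells in its 2 day 3 plates and 43 and 24 in its 2 day 4 plates. Over the 8766 genes tested in both arms, 153 rose (1.75%) and 514 fell (5.86%) in that arm, against 293 (3.34%) and 418 (4.77%) with RANKL alone. M cell genes fell in 8 of 11 tested members with the inhibitor and in 6 of 11 without it. Stem cell genes rose in 5 and in 10 of 11, and BMP targets fell in 3 and in 5 of 6. The difference between arms was itself tested for each gene, and 31 of 8766 genes passed (0.354%), with no member of the M cell or stem cell list among them; 916 genes had an unadjusted p under 0.05, and DESeq2 called 76 genes. Olfm4 changed by 2.60 ± 0.32 (SE, adjusted p = 1.82e-06) with the inhibitor, and the difference between arms was -0.01 ± 0.38 (SE, adjusted p = 1). For Ccl20 these values were -2.17 ± 0.35 (SE, adjusted p = 7.27e-05) and 0.42 ± 0.44 (SE, adjusted p = 0.786). Spib was at 316 and 566 CPM on day 3 and 256 and 37.8 CPM on day 4 with the inhibitor, a difference between arms of -0.83 ± 0.63 (SE, adjusted p = 0.665). The call of 31 genes rests on few plates: without the first inhibitor plate of day 4 none passed, without the second inhibitor plate of day 3 there were 3, without the second RANKL plate of day 4 there were 18, and without the third there were 49. The arms are separate plates, deposited in separate tables and sequenced to different depths, so the inhibitor and the plate set cannot be told apart.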

How the data were processed

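Per the labels, viable cells were gated on light scatter, sorted into 384-well plates and turned into libraries by an adapted CEL-Seq2 method. The authors deposited UMI counts per gene and well, not normalized; kallisto, bustools, Seurat 3.1.5 and GRCm38 are named in the submitters' processing notes. The tables hold no mitochondrial or spike-in rows and every column matched a sample. Wells with 1000 or more UMIs were kept, no doublet caller was run since wells were sorted singly, and counts were summed per plate. All 30 RANKL plates, or 35 plates of both arms (days 0 to 6), entered 1 fit with edgeR 4.0.16 (TMM, filterByExpr, quasi-likelihood test, Benjamini-Hochberg over all genes, R 4.3.3). Shares were compared with exact permutation tests, two-sided (scipy 1.17.1). On simulated data for this comparison, changes were set only in genes whose mean CPM over days 3 and 4 was at least 5 on the log2 scale. Of these changes, 76% of the 2-fold and 99% of the 4-fold were recovered in a fit of 10000 genes. Recovery of genes under that level was not tested. Alternatives were other scaling, filters, DESeq2 1.42.0, UMI minimums, thinning, a replicate block and leaving out plates. The floors and the limit for a count of 0 cover counting error only. The SE comes from the edgeR test and the SD from the plates of a day, so both include the spread between plates. Coordinates come from GENCODE M21 (20538 of 21099 symbols matched). 

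The 26 gene lists and the genes compared were chosen with earlier results of these data known. The rule for named genes took 12 rises and 12 falls, the largest of those that passed, did not overlap between days and averaged at least 5 in log2 CPM, up to 4 called members of each list, and genes of prior interest; the text gives a selection, and some genes that it picked are not reported here. Genes outside it, among them Id2, Smoc2, Cdca7, Slc12a2, Lrig1, Ascl2, Sox9, Nfkbia, Pcna, Mcm6, Clec2h, Serpinb6a, Ctsh, Gclc, Gsta4, Fdft1 and all members given as not passing apart from Tnfrsf11a, Ccl9 and Mki67, were chosen after their values were seen.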

Additional observations from a re-analysis of the deposited data

Results flagged for a closer look

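For 10 of the 31 called genes, of which Clec2h was chosen after its values were seen, the change from day 3 to day 4 differed between RANKL alone and RANKL with CSRM617, by the test of the difference itself (edgeR, adjusted p at 0.05). Values are the log2 change with RANKL minus that with the inhibitor. Id1, the helix-loop-helix BMP target, had -2.83 ± 0.54 (SE, adjusted p = 0.0118): it was at 301 and 231 CPM on day 3 and 120 and 94.6 CPM on day 4 with the inhibitor, so it fell in both arms and further with RANKL alone. Ccnb1, the mitotic cyclin, had -2.53 ± 0.52 (SE, adjusted p = 0.0127), with 48.9 and 40.2 CPM and then 184 and 114 CPM with the inhibitor. Cftr, the chloride channel, had -1.60 ± 0.32 (SE, adjusted p = 0.0127), and S100a6 -1.50 ± 0.31 (SE, adjusted p = 0.017).

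In the other direction, Kctd14 had 3.53 ± 0.77 (SE, adjusted p = 0.0213), Oit1 3.30 ± 0.76 (SE, adjusted p = 0.0296) and Nlrp6, an inflammasome sensor of the gut epithelium, 3.06 ± 0.71 (SE, adjusted p = 0.0335). Mt1, a metallothionein, had 3.00 ± 0.50 (SE, adjusted p = 0.00324), with 3986 and 3514 CPM on day 3 and 176 and 1098 CPM on day 4 with the inhibitor against 617, 787 and 701 and 885, 694 and 876 CPM without it. Cth, an enzyme of cysteine synthesis, had 2.98 ± 0.67 (SE, adjusted p = 0.0279), and Clec2h 2.34 ± 0.53 (SE, adjusted p = 0.0282). All 24 called differences in this direction came with a fall in the inhibitor arm. The Kctd14 difference ran from 3.01 to 9.71 with a plate left out, the highest being without the first inhibitor plate of day 4, where the remaining plate had 0 CPM, so that value is no bound. That of Mt1 was 1.99 without the first inhibitor plate of day 4 and 4.60 without the second. None of these calls was kept without the first inhibitor plate of day 4, which leaves 1 plate of 24 cells that is assumed to vary like the others. What part the few cells and the separate plate set have in these differences was not tested.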

How the results depend on the processing

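The main counts were 432 rises, 502 falls and 31 differences between arms. With only the 6 plates of days 3 and 4 there were 200 rises and 231 falls, without cells that passed for the M cell list 84 and 108, and with all plates thinned to the shallowest 127 and 253. With each plate left out in turn, rises ran from 222 to 432 and falls from 263 to 531. Differences between arms numbered 76 with DESeq2, 2 with only days 3 and 4, 55 with a minimum of 2000 UMIs, and 0 to 49 with a plate left out. With the replicate number as a block there were 416 rises, 481 falls and 28 differences between arms. Deviations of same-numbered plates correlated at -0.135, -0.0931 and 0.101. With 3 values and the counting error of day 4, these cannot tell whether the numbers pair plates. Other settings gave 373 to 451 rises and 436 to 628 falls. Of 2808 values of named genes under alternatives, 2539 kept direction and side of the threshold, 228 lost the call, 41 gained one and none changed sign while called. Of the 102 named genes called, 59 lost the call without cells that passed for the M cell list, 35 without the third day 4 plate, 31 with thinned plates and 24 with the 6 plates alone. The difference in the goblet share turned to -0.0389 percentage points without the first day 4 plate (range over plates left out -0.0389 to 2.43). That in the enteroendocrine share turned to -0.211 at 2 UMIs, -0.243 at 5 UMIs, -0.0768 when thinned to 2000 UMIs and -0.424 unthinned (-0.243 to 0.174 with a plate left out). The causes were not tested. Depth limits day 4, where the shallowest plate had 178730 UMIs.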
